A study of Mus musculus with 12 samples.

Results

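The clustered protocadherins were followed as 68 transcript rows out of 55418 in the deposited table. They were all the plus-strand rows in a window of chromosome 18 drawn around the 3 clusters, and on the mouse build mm9 they run from 37089938 to 38001526. Position alone sorted them. There were 19 alpha rows, of which 18 share the end 37347314 and the other ends at 37320359. There were 23 beta rows, short and mostly separate, spanning 2319 to 5270 bases each, and 24 gamma rows that share the end 38001526. Of the remaining rows, 1 spans all 3 clusters, from 37112342 to 38001526, and 1 short row, from 37815560 to 37818791, lies between beta and gamma and was put in no family. The deposited table pairs no gene names with its identifiers, so rows are named by their start position and the genes behind single rows are not named here.

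Protocadherins are adhesion proteins of the cadherin superfamily that sit in the cell membrane. In the alpha and gamma clusters a typical transcript begins at a variable first exon, with its own promoter, and is spliced to constant exons shared by the whole cluster. The beta genes carry no shared constant exons. The family is best known from neurons, where each cell uses a few of the many promoters and the resulting protein mix marks a cell's own branches. Eed, named in the series title, is a core subunit of Polycomb repressive complex 2, which places the repressive mark H3K27me3 on histone H3.

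RNA was sequenced from mouse kidney cells taken at postnatal day 0, which the labels call fetal kidney cells. Cells expressing Six2, a transcription factor of nephron progenitors, were obtained by flow sorting and carried the R26R-tdTomato reporter in all groups. The titles mark each library as control or mutant and as high- or low-expressing, giving 4 control low, 4 mutant low, 2 control high and 2 mutant high libraries. The labels name neither the mutated gene, the allele, the driver of recombination, nor the signal that was high or low, and the description field of control and mutant libraries alike starts with WT1. The targeted gene and the markers of kidney cell types were not analysed here, because no row carries a gene name. Nothing in the labels ties the libraries to separate animals, so the p-values reflect only how these libraries vary, and that variation may be technical.

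Library totals ran from 4549011 to 12365078 fragments. The 2 control high libraries stood apart. Mitochondrial rows took 4.51% and 10.3% of their fragments, against 0.494% to 1.96% in the other 10 libraries, and their TMM normalization factors were 0.764 and 0.808. The 100 most abundant rows took 28.4% and 33.6% there and 18.1% to 21.3% elsewhere. A fit without mitochondrial and the most abundant rows was among the alternatives given at the end. Otherwise the part of these differences in the results below was not tested. The protocadherin rows held 655 and 362 fragments in control high, 4052 and 2920 in mutant high and 5654 to 15240 in the low libraries.

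Levels are given as CPM, the deposited fragments scaled to library size (counts per 1e6) with TMM factors. Gamma made up most of the family's RNA, with 87.8% to 94.3% of the protocadherin fragments in each library. Because alpha or gamma transcripts share exons, the split of fragments between rows of 1 cluster is an estimate. The sum over a cluster does not depend on that split, though the gamma sum takes in the spanning row. The gamma sum, counted together with the spanning row, was 1004, 888, 1019 and 1153 CPM in the control low libraries. The mutant low ones had 807.4, 857.1, 1084 and 958.9 CPM. In control high it was 122.6 and 91.38 CPM, and in mutant high 362.5 and 316.1 CPM. Both low groups lay above mutant high and mutant high lay above control high without overlap, while the low groups overlapped each other. The means were 1016 ± 108 (SD, n = 4), 927 ± 122 (SD, n = 4), 107 ± 22.1 (SD, n = 2) and 339 ± 32.8 CPM (SD, n = 2) in that order.

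The beta rows held far fewer fragments than gamma; CPM is not per length, and the exon lengths that such a comparison of genes would need are not in the table. Their sum in control low was 76.61, 58.81, 73.87 and 81.26 CPM, and mutant low had 47.57, 51.1, 63.09 and 67.59 CPM. It was 13.85 and 7.66 CPM in control high against 37.12 and 40.57 CPM in mutant high. The order of the groups was that of gamma, again with overlap only between the low groups. The alpha cluster held few fragments. Its sum in control low was 2.637, 2.466, 4.12 and 4.388 CPM, and mutant low had 2.63, 3.224, 2.378 and 3.38 CPM. Control high held 0.8396 and 0 CPM and mutant high 1.386 and 3.206 CPM, which is 0 to 54 fragments per library, so alpha differences are known only coarsely. In these bulk samples fewer cells of a type and less RNA per cell cannot be told apart.

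**Figure D1:**
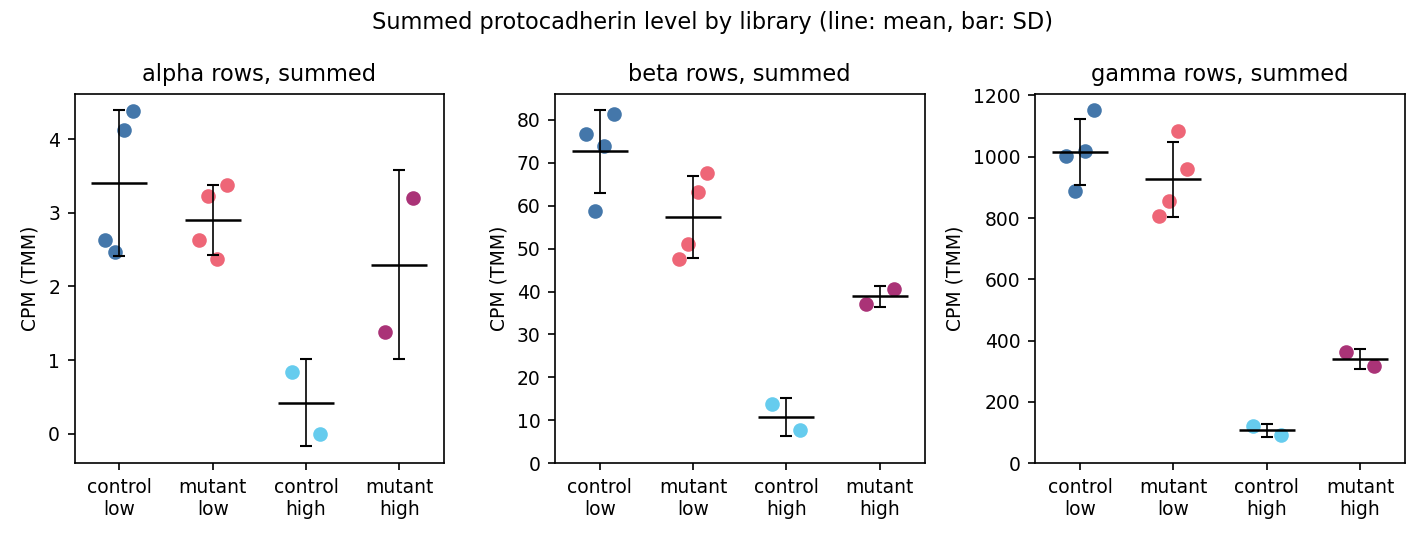
Summed level of the alpha, beta and gamma rows in each of the 12 libraries, in CPM with TMM scaling. Points are libraries, lines are group means and bars are SD; gamma lies at 91.38 and 122.6 CPM in control high, at 316.1 and 362.5 in mutant high and at 807.4 or more in every low library.

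Of the 68 rows, 41 held enough fragments to be tested (1 alpha, 16 beta, 23 gamma and the spanning row). The other 27 were 18 alpha, 7 beta and 1 gamma row and the lone short row, and 7 of these were listed at 0 in all 12 libraries. All 41 passed the filter through the low libraries. Only 8 of them reached the filter's 1.26 CPM in both control high libraries and 26 did so in both mutant high libraries, so counts over tested rows of high against low cells are partly set by the filter.

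The first comparison asks how high and low cells differ in control kidney. Protocadherin RNA was much lower in control high cells. The gamma sum fell by 3.25 on the log2 scale (SE 0.27, adjusted p 3.41e-07 by edgeR's quasi-likelihood test over 13766 loci). The alpha sum fell by 2.86 (SE 0.73, adjusted p 0.00443 in the same edgeR test). Single rows fell in both of the larger families. Among the 41 rows tested, 28 were lower and 0 higher (12 of 16 beta and 16 of 23 gamma), where 15.8% of all 21343 rows tested were lower and 14.5% higher. All 41 had fold changes below 0, and their median on the log2 scale was -2.90 (-2.75 when rows without any control high fragment are set at their bound) against -0.19 over all rows tested. In 39 of 41 rows every control low library lay above both control high libraries, which held for 28.5% of all rows tested. The shares over all rows take in rows that could pass the filter through any group, while all 41 passed through the low libraries. The filter thus favours falls among the 41 rows, and the shares are not a like background. By locus, 17 of the 18 protocadherin loci tested fell, with a background of 27.1%. Without control high replicate 2 the count of rows was 22 and without control high replicate 1 it was 30. On the 8 libraries whose description number occurs in both a low and a high sample it was 16 of 40 rows tested, and 4 with that number as a replicate block, while the gamma and alpha sums kept their calls in both fits. Of the rows described next, the beta rows at 37663917 and 37673305 and the gamma rows at 37854154 and 37915426 lost their calls under that block, as did the beta row at 37467108.

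The gamma row that starts last, at 37984012 (uc008erh.1), had the highest CPM of all the rows. Exons are not given for the rows, so whether this row begins at a variable first exon is not known here. It stood at 386.7, 398.5, 536.9 and 482.2 CPM in control low and at 71.31 and 46.4 CPM in control high. The groups did not overlap, and the row fell by 2.94 (SE 0.32, edgeR adjusted p 0.000136). The next was the row starting at 37966069 (uc012bcb.1), at 297.3, 222.4, 160.8 and 211.9 CPM in control low against 6.95 and 10.19 CPM in control high. It fell by 4.71 (SE 0.34, edgeR adjusted p 2.13e-05), a wider gap than for the last row. A transcript that starts 6 bases earlier, at 37966063, had 89.58 to 221.6 CPM in the low controls and 9.424 and 4.461 CPM in control high. Since these starts are so close, how fragments were shared between the pair is the least certain of the splits.

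Among beta rows the highest, both in CPM and per kilobase of its span, began at 37663917. It stood at 10.79, 8.828, 12.79 and 14.87 CPM in control low and at 2.099 and 1.368 CPM in control high (log2 fold change -2.75, SE 0.56, edgeR adjusted p 0.00437). Per kilobase of span this was 3.48 CPM in control low and 0.510 in control high. The row at 37673305 (uc008eqg.1), near the end of the beta cluster, had the greatest fall among beta rows with a fragment in control high. Its level was 5.036, 2.337, 4.65 and 6.664 CPM in control low and 0.2099 and 0 CPM (1 and 0 fragments) in control high, a fall of 5.18 (SE 0.91, edgeR adjusted p 0.00191). For 3 of the tested rows control high held no fragment at all, and their fitted folds are not bounds. Against a floor of 3 fragments over the control high group, control low was at least 5.17-fold higher for the beta row at 37467108, at least 3.73-fold for the gamma row at 37854154 and at least 6.27-fold for the gamma row at 37915426.

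**Figure D2:**
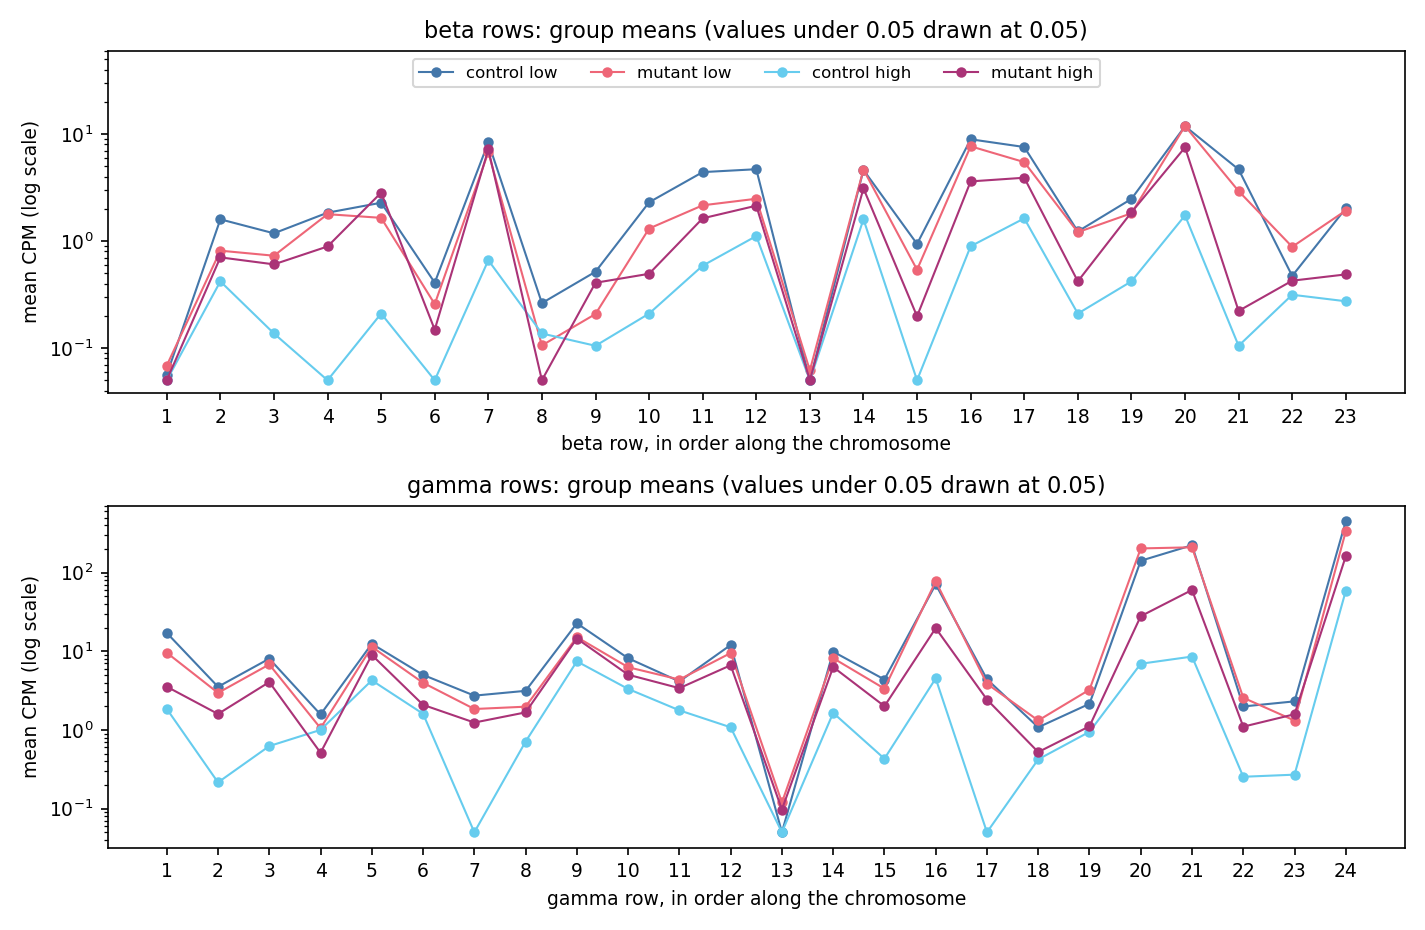
Mean CPM of each beta row and each gamma row, on a log axis, in order along the chromosome, with 1 line per group. Control high is the lowest of the 4 groups at most positions, and gamma rows 20, 21 and 24 carry the highest levels, the last at 451.07 CPM in control low and 58.86 in control high.

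The second comparison, mutant against control in low cells, showed no protocadherin change past the threshold. The gamma sum differed by -0.18 (SE 0.19, adjusted p 0.645, edgeR) and the alpha sum by -0.29 (SE 0.40, adjusted p 0.737, edgeR). Of the 41 rows, 0 were higher and 0 lower in edgeR's quasi-likelihood test, where 2.00% of all rows tested were called in either direction. Unadjusted p-values were under 0.05 for 3 rows in edgeR, 5 in DESeq2 and 6 in limma-voom, all of them lower in the mutant, and neither of the other tools called a row after adjustment. The share of all rows with such p-values is not given here, so these counts are not read as a result about the protocadherins. Fold changes were below 0 for 32 of 41 rows, with a median of -0.33 against -0.04 over all rows. The beta sums were 72.6 ± 9.71 CPM (SD, n = 4) in control low and 57.3 ± 9.53 CPM (SD, n = 4) in mutant low, with ranges that overlap.

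The rows nearest to a call in low cells were chosen after their values were seen. The beta row at 37581071 stood at 4.436, 2.337, 5.812 and 5.038 CPM in the controls and 1.487, 1.773, 2.152 and 3.215 CPM in the mutant, and its difference of -1.02 had an edgeR adjusted p of 0.335. The gamma row at 37874487 stood between 19.95 and 26.68 CPM in the controls and between 9.041 and 19.3 CPM in the mutant, the groups not overlapping, with a difference of -0.58 and an edgeR adjusted p of 0.366. Control low lay wholly above mutant low in 2 of 41 rows (3.79% of all rows tested) and mutant low wholly above control low in 0 (5.70% of all rows). The main gamma row, at 37984012, had 338.5, 425.1, 222.1 and 357.2 CPM in mutant low, overlapping its control low values.

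Mutant against control was next compared in high cells. The mutant had more protocadherin RNA there. The gamma sum was higher by 1.63 (SE 0.27, adjusted p 0.000813, edgeR). The alpha sum differed by 2.23 (SE 0.80, adjusted p 0.0519, edgeR), which misses the threshold; without control high replicate 1, which leaves the controls at 0 alpha fragments, the adjusted p was 0.02, and without mutant high replicate 1 it was 0.0364. Of the 41 rows, 10 rose and 0 fell (4 beta and 6 gamma), with 6.78% of all rows tested rising and 2.65% falling. The median log2 fold change was 1.92, or 1.44 with the rows lacking any control high fragment set at their bound, against 0.09 over all rows, and 40 of 41 lay above 0. The exception was the gamma row at 37840111, at -0.91.

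These high-cell calls rest on few libraries. Both mutant high libraries lay above both control high libraries in 31 of 41 rows, a pattern seen in 33.1% of all rows tested. By locus, 7 of 18 rose (6 of 16 beta loci and the gamma sum), with a background of 16.3%. The count of rows dropped to 4 when control high replicate 2, mutant high replicate 1 or mutant high replicate 2 was left out. Fitted on the 4 high libraries alone, edgeR called 0 of the 24 rows it then tested, with 8 at an unadjusted p under 0.05, all higher. The shares over all rows in that fit are not given here, so these counts cannot be set against them. The gamma sum kept its call in that fit and in each of the other 20 alternatives that gave a value for it, at 1.21 to 1.86 with adjusted p up to 0.016.

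Of the gamma rows that rose, the one at 37966069 held most firmly. It read 61.99 and 58.43 CPM in mutant high against 6.95 and 10.19 CPM in control high, higher by 2.82 (SE 0.33, edgeR adjusted p 0.00184). Its call was kept in 22 of 23 alternatives and lost in the fit of the high libraries alone. The row 6 bases earlier, at 37966063, read 34.76 and 21.13 CPM in mutant high against 9.424 and 4.461 CPM in control high. Its difference of 2.00 (SE 0.76, edgeR adjusted p 0.135) was not called, and the split of fragments between this pair is uncertain. Together the pair read 96.76 and 79.56 CPM in mutant high against 16.37 and 14.65 CPM in control high, a sum that was not tested. The main row at 37984012 read 170.3 and 153.2 CPM in mutant high against 71.31 and 46.4 CPM in control high. That rise of 1.46 (SE 0.32, edgeR adjusted p 0.0213) was smaller, and its call did not survive the loss of control high replicate 2 or of either mutant high library.

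The row at 37911432, the one with the highest CPM among the first 19 gamma starts, read 20.14 and 19.26 CPM in mutant high and 1.725 and 7.309 CPM in control high (2.13 higher, SE 0.58, edgeR adjusted p 0.0457). Its call was kept in 7 of 23 alternatives and through the loss of only 2 of the 12 libraries, control low replicate 3 and control high replicate 2. The row at 37901747 read 7.467 and 5.141 CPM against 1.666 and 1.629 CPM (1.92 higher, SE 0.37, edgeR adjusted p 0.0113) and lost its call without either control high library or mutant high replicate 1. Groups were apart in both rows. The gamma rows at 37854154 and 37915426 had no control high fragment. Mutant high read 1.218 and 1.264 CPM in the first and 1.952 and 2.918 CPM in the second, which is at least 1.70-fold and at least 3.46-fold above a floor of 3 fragments. The call for 37915426 was kept without each library in turn, and that for 37854154 was lost without any of the 4 high libraries. In 21 of 24 gamma rows, these 4 among them, values were whole multiples, within 0.02, of a step between 1.84 and 2.08, so such a row holds about that many times fewer fragments than it shows, and the floors were set with that step.

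In the beta cluster the row at 37501355 (uc008eps.1) rose most clearly. It read 5.741 and 8.632 CPM in mutant high, 1.049 and 0.2736 CPM in control high and 4.121 to 15.11 CPM over the low libraries. Mutant high thus lay within the range of the low cells, and above control high by 3.37 (SE 0.74, edgeR adjusted p 0.0203). The call did not survive the loss of the second library of either high group. The row at 37467108 read 0.7919 and 0.9866 CPM in mutant high and none in control high, at least 2.50-fold above the floor, and its call was lost without either control high library. For the row at 37480034 mutant high read 3.069 and 2.59 CPM and control high 0.4198 and 0 CPM, and for the row at 37637421 they read 3.762 and 3.453 CPM and 0.4198 and 1.368 CPM. Their edgeR adjusted p-values of 0.0473 and 0.0491 lay close to the threshold and were lost in 17 and 18 of 23 alternatives, with 10 and 11 of the 12 libraries left out in turn among them. The beta row with the highest level, at 37663917, had 5.741 and 9.249 CPM in mutant high against 2.099 and 1.368 CPM, with an edgeR adjusted p of 0.0518.

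**Figure D3:**
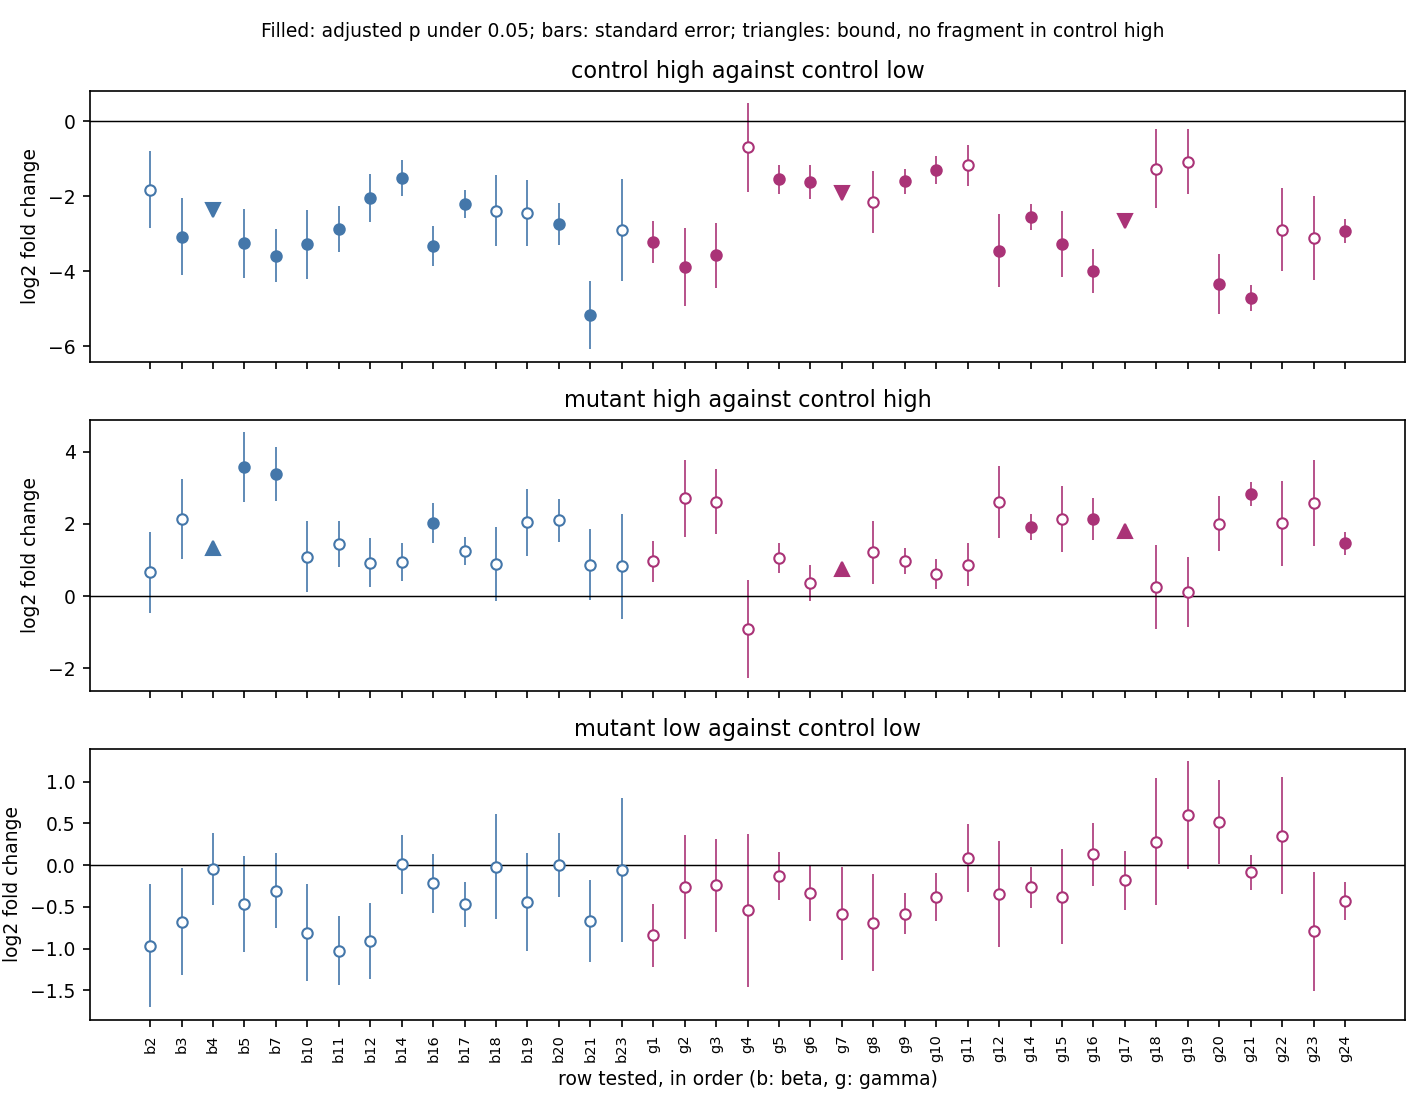
Log2 fold change of each of the 39 tested beta (b) and gamma (g) rows, in order along the chromosome, for control high against control low, mutant high against control high and mutant low against control low. Filled points have an adjusted p under 0.05, bars are SE and triangles mark bounds for rows with no control high fragment; all rows lie below 0 in the top panel, all but 1 above 0 in the middle one, and none is filled in the bottom one.

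High against low cells within the mutant gave a smaller gap than in control. These comparisons share libraries with those above, and their values are given side by side. The gamma sum fell by 1.44 in the mutant (SE 0.25, adjusted p 0.000439, edgeR), where it fell by 3.25 in control. The alpha sum differed by -0.34 (SE 0.51, adjusted p 0.649, edgeR). Of the 41 rows, 5 fell and 0 rose, with 4.02% of all rows tested falling and 8.70% rising. They were the beta row at 37673305 and the gamma rows at 37911432, 37966063, 37966069 and 37984012. The median over the 41 rows was -0.65 and over all rows -0.04. Every mutant low library lay above both mutant high libraries in 16 of 41 rows, against 18.6% of all rows. The count was 2 without mutant low replicate 4 and 1 without either mutant high library.

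The beta row at 37673305 read 2.63, 2.257, 2.378 and 4.451 CPM in mutant low and 0.198 and 0.2466 CPM in mutant high, a fall of 3.64 (SE 0.77, edgeR adjusted p 0.0118). Its mutant high level, at 2 and 2 fragments, overlapped the 0.2099 and 0 CPM of control high, at 1 and 0 fragments. With so few fragments the high groups can be compared only coarsely in this row. The call for the fall was lost without either mutant high library. By locus, 4 of 18 fell in mutant high against mutant low (3 of 16 beta loci and the gamma sum). The share over all loci is not given here. Beside the locus of the row at 37673305, the beta loci were those from 37637421 to 37642691 and from 37678006 to 37681073, described after their values were seen. The first fell by 1.08 (SE 0.39, edgeR adjusted p 0.0472 among loci) and the second by 1.64 (SE 0.52, edgeR adjusted p 0.0266 among loci). The second locus had 0.594 and 1.233 CPM in mutant high, overlapping the 0.6295 and 0.5472 CPM of control high. Its tested row, at 37678012, was not called (edgeR adjusted p 0.318). The gamma row at 37966069 read 184.7 to 260.8 CPM in mutant low and fell by 1.8 in mutant high (SE 0.29, edgeR adjusted p 0.00256). The row at 37984012 fell by 1.05 (SE 0.29, edgeR adjusted p 0.0390), a call kept in 4 of the 12 fits that left out a library. The calls at 37911432 and 37966063 were lost without either mutant high library or mutant low replicate 4, and the former also without mutant low replicate 3.

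An interaction term asked whether the effect of the mutation depended on the population, high or low. For the gamma sum the effect was 1.81 greater in high cells (SE 0.33, adjusted p 0.00411, edgeR), and the call was kept in all 21 alternatives that gave a value, at 1.5 to 2.01 with adjusted p up to 0.0365. For the alpha sum the difference was 2.52 (SE 0.90, adjusted p 0.0894, edgeR), and without control high replicate 1 its adjusted p was 0.0386. Of the 41 rows, 6 had a greater effect in high cells and 0 a smaller one, with 2.01% of all rows greater and 0.534% smaller. They were the beta row at 37467108 and the gamma rows at 37854154, 37901747, 37915426, 37966069 and 37984012. By locus, 6 of 18 were called, with a background of 7.32%.

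The count of rows for the interaction moved between 2 and 9 when single libraries were left out. It was 2 without control low replicate 1, control low replicate 2, mutant low replicate 4, mutant high replicate 1 or mutant high replicate 2, and 3 without control low replicates 3 or 4, mutant low replicates 1 or 2 or control high replicate 2. The rows at 37915426 and 37966069 kept their interaction calls through every library left out. On the 8 libraries that share a description number between low and high cells both calls were lost (edgeR adjusted p 0.137 and 0.12), as was that at 37915426 in limma-voom (adjusted p 0.127). By contrast, the beta row at 37467108 lost its call in each of those 12 fits, and those at 37901747 and 37984012 kept theirs in 2 and 3 of them. The call at 37854154 lay just under the threshold and was kept only by DESeq2 and without mutant low replicate 1. The row at 37966069 had a difference of 2.91 (SE 0.39, edgeR adjusted p 0.0078). Its close neighbour at 37966063 had 1.48 (SE 0.89, edgeR adjusted p 0.455) and was not called, and how fragments were split between them is uncertain.

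Within a library, the gamma fragments were divided differently in high and low cells. The first 19 gamma starts together took 17.3% to 20.01% of gamma fragments in control low and 16.9% to 20.1% in mutant low, against 28.1% and 32.0% in control high and 25.3% and 25.1% in mutant high. These shares use the deposited values, in which the first 19 rows come in steps of about 2 while the pair and the last start do not, so the level of the former may be overstated relative to the others in every library. The pair at 37966063 and 37966069 took 29.4% to 41.2% in control low, 13.4% and 16.03% in control high and 26.7% and 25.2% in mutant high. Both high groups thus lay outside the low range for these shares, with control high farther away. No test was made on these shares.

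The last start, at 37984012, took 38.5% to 52.7% in control low, 58.2% and 50.8% in control high and 47.0% and 48.5% in mutant high. Because the exons of this row are not given, its share is not read as use of a promoter. In mutant low its share was 41.9%, 49.6%, 20.5% and 37.3%. Mutant low replicate 3 differed from the other 3 libraries of its group, with 62.2% of its gamma fragments on the pair and 20.5% on the last start, while its gamma sum of 1084 CPM was the highest of the group. The beta rows held 6.62 to 7.63 fragments per 100 gamma fragments in control low and 5.82 to 7.05 in mutant low. The ratio was higher in the libraries of high cells of both genotypes, at 11.3 and 8.38 in control high and 10.2 and 12.8 in mutant high. The control high ratios rest on 66 and 28 beta fragments, so they are known only coarsely, and no test was made on the ratio.

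**Figure D4:**
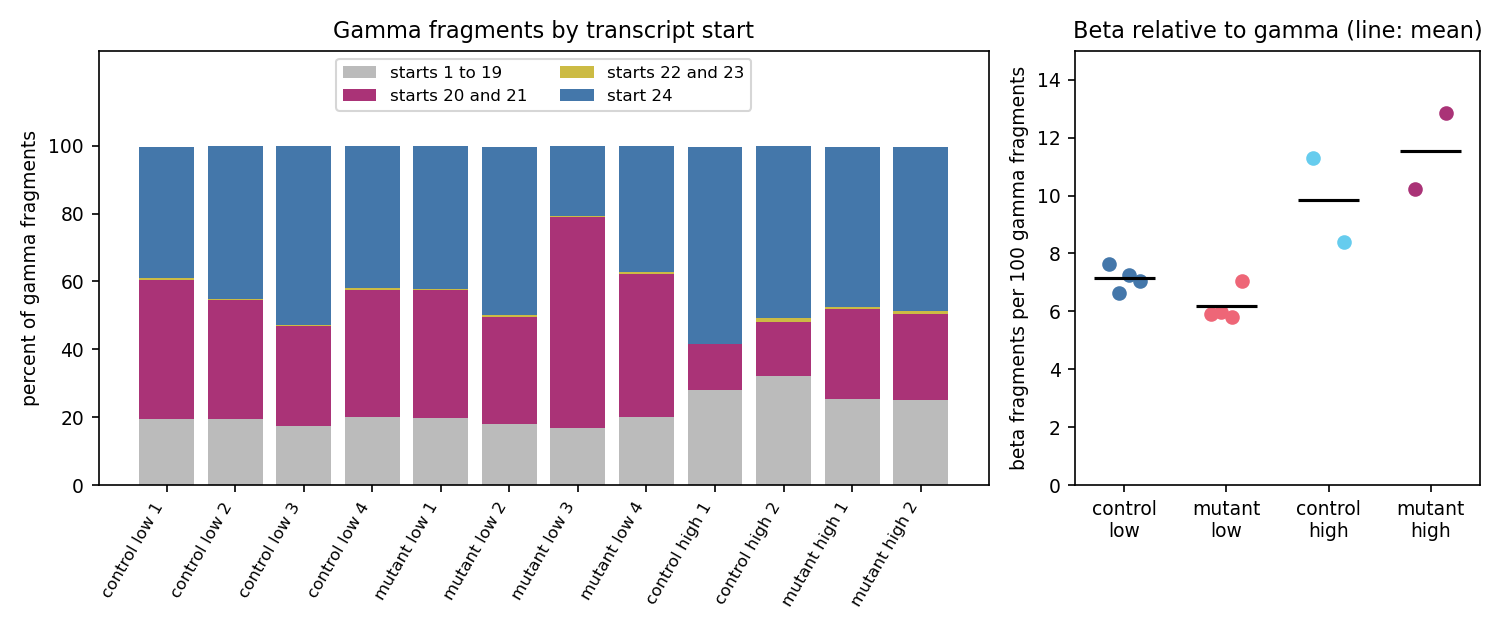
Left, the percent of gamma fragments assigned to groups of transcript starts in each library; the spanning row is not drawn, so bars end just under 100. Right, beta fragments per 100 gamma fragments by library with group means as lines; the low libraries lie between 5.82 and 7.63 and the high ones between 8.38 and 12.8.

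Broad use of the gamma starts was seen in the low libraries. At least 1 fragment was assigned to 23 or 24 of the 24 gamma rows in every low library, to 16 and 19 in control high and to 22 to 24 in mutant high. For beta it was 20 to 23 of 23 rows in the low libraries, 10 and 15 in control high and 18 and 22 in mutant high. Control high also held the fewest protocadherin fragments. Its library totals were 6249263 and 4549011, against 5948488 in mutant low replicate 2, and the part of depth in these numbers was not tested. The lowest gamma row, at 37896589, had a mean of 0.12 CPM in mutant low and was not tested.

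In the alpha cluster 12 of 19 rows held a fragment in at least 1 library. The row whose start lies nearest the shared end, at 37303622, took 45.6% to 74.8% of alpha fragments in control low and 55.2% to 95.2% in mutant low. It read 1.831, 1.125, 2.608 and 3.282 CPM in the low controls, 1.45, 2.41, 2.265 and 3.178 CPM in mutant low, 0.8396 and 0 CPM in control high and 0.5992 and 2.805 CPM in mutant high. Control high lay below both low groups and mutant high overlapped every other group, and the row's edgeR adjusted p was 0.134 for control high against control low and 0.335 for mutant high against control high. The next most abundant alpha row, at 37164973, reached 0.4162 CPM at most and was not tested. The row at 37249789, second from the shared end, was at 0 in 10 of 12 libraries.

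The gamma rows starting at 37974732 and 37979199, between the abundant pair and the last start, stayed low throughout. The first read 0.7229 to 3.115 CPM in the low controls and 0 and 0.5078 CPM in control high, and the second 1.184 to 2.921 CPM and 0 and 0.5402 CPM. In mutant high they read 1.286 and 0.9156 CPM and 0.9773 and 2.192 CPM. Neither passed the test in any comparison. Together they made up at most 1.15% of gamma fragments.

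Loci flanking the clusters were read for comparison. The nearest expressed locus before them, on the plus strand from 36953576 to 36959314, stood at 182 ± 35.4 CPM (SD, n = 4) in control low and 131 ± 29.9 CPM (SD, n = 2) in control high (log2 fold change -0.48, edgeR adjusted p 0.137), and differed by -0.14 between mutant high and control high (adjusted p 0.768). The nearest after them, on the minus strand from 38003254 to 38095065, went the other way in control, with 3.37 ± 0.555 CPM (SD, n = 4) in control low and 7.57 ± 0.906 CPM (SD, n = 2) in control high, a rise of 1.17 (edgeR adjusted p 0.028). Its difference between mutant high and control high was -0.96 (edgeR adjusted p 0.158). Other loci nearby, picked after their values were seen, went both ways. The minus-strand locus from 36902019 to 36904202 went against the gamma sum. It rose by 1.34 in control high against control low (edgeR adjusted p 0.00273). It differed by -1.55 between mutant high and control high (edgeR adjusted p 0.00949). The minus-strand locus from 36884720 to 36886308 rose in both comparisons, by 3.54 and 2.95 (edgeR adjusted p 2.51e-07 and 0.000111). On the plus strand, the locus from 36942933 to 36952214 fell by 0.76 in control high against control low (edgeR adjusted p 0.0482). The minus-strand locus from 38117087 to 38129385 had a called interaction of 1.95 (edgeR adjusted p 0.0485), while its differences of -1.08 for control high against control low and 1.3 for mutant high against control high had edgeR adjusted p-values of 0.0568 and 0.0646. The minus-strand locus from 38132276 to 38158562 was higher in the mutant in low cells, by 1.54, and in high cells, by 2.07 (edgeR adjusted p 0.0104 and 0.0136).

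On the minus strand, a locus from 37906212 to 37915608 overlaps gamma transcripts. It read 1.039 to 2.275 CPM over the low libraries, 0 in both control high libraries and 0.9899 and 0.4933 CPM in mutant high. Like the gamma sum, it was called lower in control high against control low (edgeR adjusted p 0.000558), higher in mutant high against control high (edgeR adjusted p 0.0186) and in the interaction (edgeR adjusted p 0.041). The use of strand in counting is not given in the sources used here, so its fragments cannot be told apart from those of the gamma rows. Another minus-strand locus between the beta and gamma rows, from 37800144 to 37803858, read 1.773 to 5.21 CPM in low cells, 3.358 and 5.745 CPM in control high and 2.574 and 2.22 CPM in mutant high (mutant against control in high cells -0.95, edgeR adjusted p 0.186). The 3 other minus-strand loci in the region held 2 fragments or fewer in any library.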

How the data were processed

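The values deposited by the authors are unnormalized estimated counts, given per transcript for 12 libraries. The file's title says raw fragments from CuffDiff2. Bowtie2, HTSeq and DESeq2, and the build mm9, are named per the submitters' processing notes, with no roles or versions. How reads were aligned and whether strand was used is not given in the sources used here. Starts are printed as deposited; whether they count from 0 or 1 is not stated. Columns were matched to samples by the description field, and groups and replicate numbers come from the titles.

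Values were rounded and tested with edgeR 4.0.16 in R 4.3.3 (quasi-likelihood F test, TMM, filterByExpr on the 4 groups, robust dispersions, all 12 libraries in 1 fit, no covariate). The Benjamini-Hochberg adjustment ran over all features tested, with a two-sided threshold of 0.05. Single rows were tested among 21343 transcripts, and the alpha and gamma sums among 13766 loci of overlapping same-strand transcripts. The spanning row was added to the gamma sum, which was then whole within 0.02 in 12 of 12 libraries (1 of 12 without it); this was chosen after the file was seen. CPM values use the TMM factors of the transcript fit. Sums over beta rows and shares were not tested. A group without fragments was given a floor of 3 fragments, which covers counting error only. The fits were also run on simulated counts drawn with the same dispersion for every row and without values in steps. The outcome is not given here and does not bear on rows whose values come in steps.

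The members and lists were chosen with earlier results of these data known. Named one by one are, per family, the 2 most abundant rows, up to 4 rises and 4 falls called between mutant and control, the beta row with the smallest interaction p, and the alpha and gamma rows starting nearest the shared end. Other called rows were added after their values were seen. Lists of cell type markers and protocadherin regulators were not used, because no row carries a gene name. Alternatives were DESeq2 1.42.0, limma-voom (limma 3.58.1), RLE factors, other filters, fits of the groups compared, blocks, leaving out each library, a trend on genomic span, leaving out mitochondrial and the most abundant rows, and locus sums.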

Additional observations from a re-analysis of the deposited data

Results flagged for a closer look

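By edgeR's interaction test, the effect of the mutation on the gamma sum was 1.81 greater (log2) in high than in low cells. The same test called the beta row at 37467108 (5.97) and the gamma rows at 37854154 (6.94), 37901747 (2.18), 37915426 (7.56), 37966069 (2.91) and 37984012 (1.88). For the rows at 37467108, 37854154 and 37915426 control high held no fragment, so these fitted differences depend on the prior count and are not bounds.

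In 2 of 38 groups of 4 libraries, 1 library lay far from the others by Dixon's criterion, where chance alone gives about 1 in 20. The gamma row at 37854154 read 1.475 CPM in 1 control low library against 2.999 to 3.25 CPM in the other 3. The beta row at 37673305 read 4.451 CPM in 1 mutant low library against 2.257 to 2.63 CPM in the other 3.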

How the results depend on the processing

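The gamma sum kept its direction and its side of the threshold in all 5 comparisons under each alternative that gave a value. It gave none when mitochondrial and the most abundant rows were left out, because it is itself among the most abundant. Removing a trend on genomic span gave its lowest value for mutant against control in high cells, 1.21. With single libraries left out the alpha sum ranged from 1.41 to 7.30 for mutant against control in high cells and from 1.70 to 7.55 for the interaction.

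Counts of called rows moved more, and the shares over all rows in these fits are not given here. For mutant against control in high cells, where 10 rows were called, limma-voom gave 3, the groups compared alone 0, the replicate block on title numbers 6, the 8 libraries that share a description number between low and high cells 3, and fits without 1 library 4 to 9. For high against low control cells (28 of 41 rows called), the 8 libraries gave 16 of 40 rows, and the same with a description-number replicate block 4 of 40. Locus sums gave 17 of the 18 loci tested, a count in other units. For high against low mutant cells (5 called), the groups compared alone gave 3, the title-number replicate block 3, the 8 libraries 1, the description-number replicate block 0 (4 at an unadjusted p under 0.05 in edgeR) and fits without 1 library 1 to 5. For the interaction (6 called), no filter gave 2, DESeq2 12, limma-voom 1, the title-number replicate block 2, the 8 libraries 0 with the description-number replicate block and 0 without it (10 and 15 at an unadjusted p under 0.05), removing the span trend 3 and fits without 1 library 2 to 9. The cause of these shifts was not tested. In low cells 0 rows were called under every alternative, the low libraries with description numbers up to 7 and those above 7 taken alone included; this split and dividing values by their fragment step were chosen after seeing the data.

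Neither set of numbers met the criterion for paired samples, a correlation over 0.1 in every pair. Deviations of control low and mutant low libraries with the same title number correlated at 0.0672, 0.284, 0.0991 and 0.467 over 13766 loci, and those of low and high libraries with the same description number at 0.225, -0.056, 0.136 and -0.0834. Counted at a group mean of at least 1 CPM, gamma rows in use were 23, 23, 13 and 21 and beta rows 16, 14, 4 and 9 in control low, mutant low, control high and mutant high. The alpha sum held 0 to 54 fragments per library, and each high group has 2 libraries.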
